A study of Mus musculus with 6 samples.

Results

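The BCL2 family decides whether a cell keeps its mitochondria intact or dies, and 10 mouse members were followed here: the survival genes Bcl2, Bcl2l1 (BCL-XL), Bcl2l2 (BCL-W), Mcl1 and Bcl2a1d (A1), the BH3-only death genes Bcl2l11 (BIM), Bbc3 (PUMA), Bmf and Bid, and the pore former Bax. Members were found by the RefSeq accession that the array gives for each probe. This gave 13 probes of 26728 that were matched to a gene, and 10 genes of 20263. Bcl2l1, Bcl2l2 and Mcl1 had a pair of probes each, and the other 7 genes had a single probe. Where there was a pair, the probe with the brighter mean over the arrays stood for the gene.

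Survival proteins of the family bind and hold the death proteins at the outer mitochondrial membrane. BH3-only proteins are made or activated under stress, loss of growth factors or DNA damage. They occupy the groove of the survival proteins or activate BAX and BAK directly, after which cytochrome c leaks out and caspases are activated. In the myeloid lineage, MCL1 and A1 are known survival proteins under cytokines such as granulocyte-macrophage colony-stimulating factor, and neutrophils depend on MCL1.

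Total RNA came from Tot2 cells, a myeloid progenitor line of an Irf8 knockout mouse, so all 3 groups share the Irf8 knockout and come from a single line. The control group received the empty retroviral vector MSCV-puro, and the others received MSCV-IRF8FLAG or MSCV-KLF4FLAG, which express FLAG-tagged forms of these transcription factors of monocytes from the viral promoter. All cells were grown with 5 ng/ml granulocyte-macrophage colony-stimulating factor, selected with 2 µg/ml puromycin from 48 hr on, and harvested on day 4. Each group was read on 2 single-colour Agilent arrays, replicate 1 and replicate 2, which the design text describes as independent experiments and which lay on different slides scanned on different days.

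Levels below are log2 of the processed intensity minus log2 of that array's 75th percentile (362 to 784 intensity units), so a level of 0 is the 75th percentile of the array. All 10 members gave signals well above background on all 6 arrays by the probe that stood for each gene. Of all 55606 probes, with or without a matched gene, 47.1% to 56.8% were well above background on any single array. The scanner marked 0 spots as saturated. Of the genes matched, 13247 were bright enough to test. The Irf8 level was 0.83 on average in control cells, 3.27 in IRF8-labelled cells and 2.47 in KLF4-labelled cells. The Klf4 probe rose 63.9-fold in IRF8-labelled cells (limma adjusted p = 2.18e-05, n = 2 arrays in each group), whereas KLF4-labelled cells differed from control by log2 0.04 ± 0.17 (SE), with a 95% interval of -0.39 to 0.47. The sources used here do not say whether either probe can read the transduced sequence; groups are named by their labels and every direction below rests on them.

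The progenitor and monocyte labels were set against marker genes. Of 7 monocyte and macrophage markers tested, 7 rose in IRF8-labelled and 5 in KLF4-labelled cells, and their summed linear level relative to the 75th percentile ran from 29.7 to 36.7 on control arrays, 303 to 306 on IRF8-labelled and 108 to 112 on KLF4-labelled arrays. Of 11 neutrophil markers, 10 fell in IRF8-labelled and 6 in KLF4-labelled cells, with summed levels of 1808 to 2373, 412 to 523 and 1192 to 1745 in the same order. In IRF8-labelled cells most of this sum came from the marker that was not called. Of 4 fibroblast and packaging cell markers tested 3 and 2 rose (summed level 48.0 to 50.3, 238 to 300.3, and 86.5 to 87.4). Vim made up most of this sum in each group. With the IRF8 label Vim rose 5.69-fold, Acta2 3.15-fold and Col1a2 1.66-fold. With the KLF4 label Vim rose 1.78-fold and Acta2 1.69-fold. Macrophages also express Vim, and the source of these rises was not tested. Of 4 progenitor markers tested, 1 rose and 2 fell in IRF8-labelled cells and 1 fell in KLF4-labelled cells (summed level 134 to 138, 24.97 to 25.85, and 101 to 105). The 2 that fell with the IRF8 label made up most of this sum, so it does not show the 1 that rose. Kit, the stem cell factor receptor of early progenitors, was below background on all 6 arrays. Of 2 mast cell and basophil markers tested, 1 fell with the IRF8 label, and 1 rose and 1 fell with the KLF4 label (summed level 4.74 to 4.99, 0.276 to 0.445, and 2.00 to 2.06). The marker that fell in both was the basophil protease gene Mcpt8, which fell by 4.32 and 1.32 on the log2 scale (limma adjusted p = 9.75e-06 and 7.25e-04), while Fcer1a and Ms4a2 were below background throughout. Of 3 lymphocyte markers tested, 1 rose and 1 fell with the IRF8 label and 1 rose with the KLF4 label. Il7r, the interleukin-7 receptor gene, was not well above background in control cells; against the lowest signals well above background there, it was at least 173-fold higher with the IRF8 label and at least 21.7-fold higher with the KLF4 label (limma adjusted p = 7.55e-06 and 4.44e-05). The T cell kinase gene Lck fell 7.53-fold with the IRF8 label (limma adjusted p = 2.60e-04), and Cd3e was not called in either group (0.97 and 0.13 on the log2 scale). Bcl2a1d, Mcl1 and Bmf rose in both transduced groups, and the other members did not. The summed levels of the monocyte and macrophage list and of the fibroblast and packaging cell list also rose in both. The part of cell composition in the members' values was not tested. In such bulk RNA, fewer cells of a type and less RNA per cell cannot be told apart.

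Among the survival genes, Bcl2a1d and Mcl1 rose in both transduced groups, and the IRF8-labelled cells reached the higher level. Bcl2a1d read 5.35 and 5.47 in control cells, 7.31 and 7.20 in IRF8-labelled cells and 6.61 and 6.62 in KLF4-labelled cells, replicate 1 first. The 3 groups did not overlap, and their order was IRF8-labelled, KLF4-labelled, control. Bcl2a1d signal was 3.59-fold above control in IRF8-labelled cells (log2 1.84 ± 0.09 (SE), limma adjusted p = 1.08e-04, n = 2 arrays a group) and 2.31-fold above it in KLF4-labelled cells (log2 1.21 ± 0.09 (SE), limma adjusted p = 0.00133). The direct difference between the transduced groups was 1.56-fold (log2 0.64 ± 0.09 (SE), limma adjusted p = 0.00425). This call was lost with scaling on spike-in controls (limma adjusted p = 0.348).

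Mouse A1 is encoded by several closely related genes, and the Bcl2a1d probe may read more than 1 of them. A probe assigned to Bcl2a1c (A_52_P299771) gave changes of 1.87 ± 0.11 (SE) and 1.20 ± 0.11 (SE) on the log2 scale in IRF8-labelled and KLF4-labelled cells (limma adjusted p = 1.80e-04 and 0.00290), close in size to those of Bcl2a1d. No probe was matched to Bcl2a1a or Bcl2a1b, so the rise is that of the A1 genes the probes can read.

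Mcl1, whose short-lived protein restrains BAK and BIM, gave levels of 4.87 and 4.83 on control, 6.26 and 6.20 on IRF8-labelled and 5.62 and 5.54 on KLF4-labelled arrays. Again no group overlapped another, and both arrays of a group lay within 0.1 of each other. The rise was 2.60-fold with the IRF8 label (log2 1.38 ± 0.08 (SE), limma adjusted p = 1.82e-04) and 1.66-fold with the KLF4 label (log2 0.73 ± 0.08 (SE), limma adjusted p = 0.00589), and the groups differed by 1.57-fold (log2 0.65 ± 0.08 (SE), limma adjusted p = 0.00293). The dimmer Mcl1 probe (A_52_P93933) showed larger changes, of 2.30 ± 0.30 (SE) and 1.19 ± 0.30 (SE), the latter with a limma adjusted p = 0.0576 when every probe was tested by itself. Its control levels, 3.20 and 2.30, lay further apart than those in IRF8-labelled (5.01 and 5.10) or KLF4-labelled cells (3.92 and 3.97). For the brighter probe, the call in KLF4-labelled cells was lost with scaling on spike-in controls (limma adjusted p = 0.397, and 9.85e-04 to 0.397 over all alternatives). It was also lost without KLF4-labelled replicate 1 (log2 0.69). The call between the transduced groups was lost with spike-in scaling (limma adjusted p = 0.322).

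The promoter windows of this pair are shown because both genes rose in both groups; they are RefSeq sequences of GRCm38.p6, from 250 bases before to 50 bases after the annotated start, in lower case with matches of the searched letters in capitals. Mcl1 lies at chr3:95658471-95658770 on the plus strand and Bcl2a1d at chr9:88731801-88732100 on the minus strand.
Mcl1: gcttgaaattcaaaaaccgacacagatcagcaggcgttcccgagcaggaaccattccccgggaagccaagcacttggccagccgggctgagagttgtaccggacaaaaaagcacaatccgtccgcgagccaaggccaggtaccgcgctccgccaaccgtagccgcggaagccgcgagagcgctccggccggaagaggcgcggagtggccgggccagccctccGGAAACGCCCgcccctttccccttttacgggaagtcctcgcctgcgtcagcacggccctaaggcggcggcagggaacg
Bcl2a1d: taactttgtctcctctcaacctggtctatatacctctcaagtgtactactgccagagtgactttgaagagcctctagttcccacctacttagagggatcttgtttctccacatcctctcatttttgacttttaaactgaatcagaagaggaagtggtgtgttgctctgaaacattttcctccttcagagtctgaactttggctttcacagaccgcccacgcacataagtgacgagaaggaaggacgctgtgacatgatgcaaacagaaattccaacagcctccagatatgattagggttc
The search covered 17 windows of the 10 genes on both strands, for 7 letter patterns whose matches may overlap: the interferon-stimulated response element (ISRE, GAAA, any 2 bases, GAAA), the ETS-IRF composite (EICE, GGAA, any 2 bases, GAAA), the IRF-ETS composite (IECS, GAAA, any 2 bases, then CGAA or GGAA), the CACCC box known as a site of KLF factors (CCACACCC), a kappaB site (GGG, any 2 bases, TTTCC) and a STAT site (TTCNNNGAA). The capitals in the Mcl1 window are a kappaB match on the minus strand, and the Bcl2a1d window held none of the patterns. Across the members, 3 of 17 windows held the kappaB letters, against 1.63% of 32851 windows of all genes, and these belonged to Mcl1, Bcl2l1 and Bbc3. The ISRE, EICE, IECS and STAT letters were in 0 of 17 windows, and in 3.44%, 2.72%, 0.444% (CGAA) or 2.80% (GGAA), and 8.30% of all windows, in that order. A match is a description of the letters and does not show that a factor binds.

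Bcl2l1 rose in IRF8-labelled cells and stayed near the control level in KLF4-labelled cells. It encodes BCL-XL, the survival protein best known from erythroid and lymphoid cells. Its brighter probe (A_55_P1974877) read 3.96 and 4.37 on control, 5.48 and 5.81 on IRF8-labelled, and 4.02 and 4.31 on KLF4-labelled arrays. IRF8-labelled arrays lay above all others, while control and KLF4-labelled arrays overlapped. The change was 2.79-fold upward with the IRF8 label (log2 1.48 ± 0.21 (SE), limma adjusted p = 0.00250). KLF4-labelled cells differed from control by 0.00 ± 0.21 (SE) with a 95% interval of -0.53 to 0.53, and from IRF8-labelled cells by 1.48 ± 0.21 (SE), limma adjusted p = 0.00368. The second probe (A_52_P510877) gave 1.69 ± 0.27 (SE) and 0.26 ± 0.27 (SE) for the comparisons with control.

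Bcl2l2 and Bcl2 did not follow the other survival genes. Bcl2l2, encoding BCL-W, read 0.96 and 1.19 on control, 0.47 and 0.65 on IRF8-labelled, and 0.94 and 1.29 on KLF4-labelled arrays, so the IRF8-labelled arrays were the lowest. It fell 1.43-fold in IRF8-labelled cells (log2 -0.52 ± 0.16 (SE), limma adjusted p = 0.0405) and was 1.47-fold lower there than in KLF4-labelled cells (log2 -0.56 ± 0.16 (SE), limma adjusted p = 0.0386), while KLF4-labelled cells differed from control by 0.04 (95% interval -0.37 to 0.45). Its call against control was lost without any 1 of the 4 arrays compared (control replicate 1, adjusted p = 0.0548; control replicate 2, 0.153; IRF8-labelled replicate 1, 0.163; IRF8-labelled replicate 2, 0.0695) and with median or spike-in scaling (0.0604 and 0.205), without the filter on dim probes (0.102) and as a mean of its probes (0.147; 0.00315 to 0.205 over all alternatives). The call between the transduced groups was lost without IRF8-labelled replicate 1 (0.160), IRF8-labelled replicate 2 (0.0730) or KLF4-labelled replicate 2 (0.154), with spike-in scaling (0.226), without the filter (0.102) and as a mean of probes (0.363), where the difference was -0.21. The second Bcl2l2 probe was below background on all 6 arrays.

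Bcl2, the founding member and the target of venetoclax in human leukaemia, read 1.39 and 1.08 on control, 1.03 and 0.89 on IRF8-labelled, and 0.94 and 0.71 on KLF4-labelled arrays. Both transduced groups lay below both control arrays, but the gap was close in size to that between the control arrays. The differences from control were -0.28 ± 0.15 (SE), 95% interval -0.66 to 0.11, and -0.41 ± 0.15 (SE), 95% interval -0.79 to -0.02, with limma adjusted p = 0.170 and 0.131. With the replicate number as a block, both passed (adjusted p = 0.0200 and 0.0163). Without control replicate 1 the differences were -0.12 and -0.25, and without control replicate 2 -0.43 and -0.56, none of them called.

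**Figure D1:**
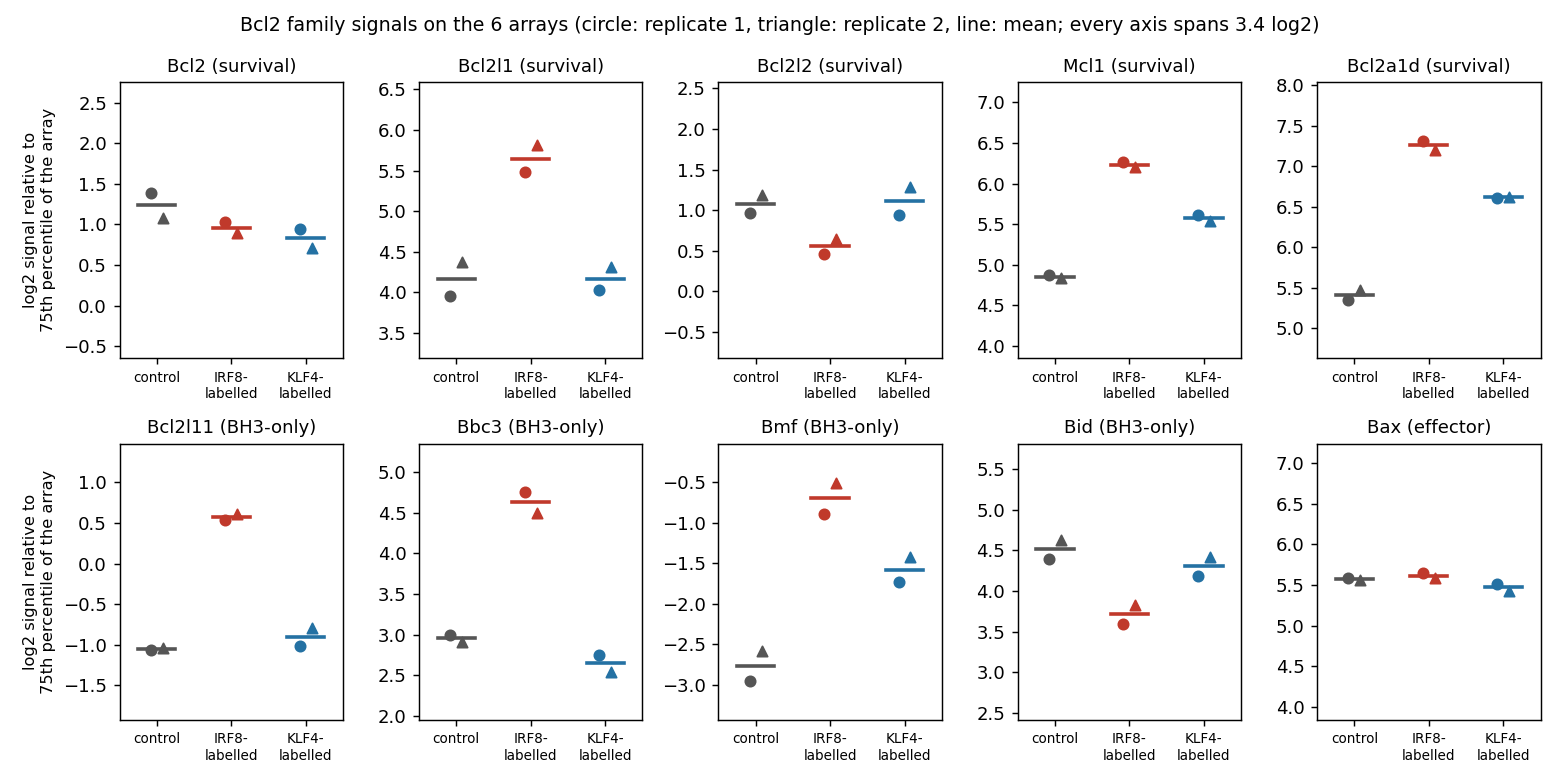
Log2 signal of the probe that stands for each of the 10 Bcl2 family genes (y axis, relative to the 75th percentile of the array) in control, IRF8-labelled and KLF4-labelled cells (x axis), with replicate 1 as a circle, replicate 2 as a triangle and the mean as a line. Bcl2a1d, Mcl1 and Bmf stepped up from control to KLF4-labelled to IRF8-labelled arrays, Bcl2l1, Bcl2l11 and Bbc3 were high on the IRF8-labelled arrays, and Bax ran from 5.43 to 5.65 on all 6.

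Of the BH3-only genes, Bcl2l11, Bbc3 and Bmf rose in IRF8-labelled cells and Bid fell. Bcl2l11, whose product BIM binds every survival protein of the family and is known as a killer of myeloid cells deprived of cytokine, read -1.06 and -1.04 on control, 0.53 and 0.61 on IRF8-labelled, and -1.02 and -0.80 on KLF4-labelled arrays. The IRF8-labelled arrays stood clear of the other 4. The rise in IRF8-labelled cells was 3.07-fold (log2 1.62 ± 0.11 (SE), limma adjusted p = 2.26e-04). KLF4-labelled cells differed from control by 0.14 ± 0.11 (SE), 95% interval -0.13 to 0.42, limma adjusted p = 0.396, and IRF8-labelled cells exceeded them 2.79-fold (log2 1.48 ± 0.11 (SE), limma adjusted p = 5.76e-04).

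Bbc3 encodes PUMA, a death protein best known as a target of p53. It read 2.997 and 2.91 on control, 4.76 and 4.50 on IRF8-labelled, and 2.75 and 2.54 on KLF4-labelled arrays. IRF8-labelled arrays were the highest and KLF4-labelled arrays lay just below control. Bbc3 rose 3.20-fold with the IRF8 label (log2 1.68 ± 0.13 (SE), limma adjusted p = 3.96e-04). With the KLF4 label it differed from control by -0.31 ± 0.13 (SE), limma adjusted p = 0.181, and 0.0278 with the replicate number as a block. The gap between the transduced groups, 3.95-fold (log2 1.98 ± 0.13 (SE), limma adjusted p = 4.77e-04), was the largest of the 10 members.

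Promoter windows of Bcl2l11 and Bbc3 are shown as the BH3-only pair that was high with the IRF8 label and near control with the KLF4 label, with source and capitals as above. The windows are chr2:128125788-128126087 (plus strand, the first of 2 for Bcl2l11) and chr7:16310011-16310310 (plus strand, the second of 3 for Bbc3).
Bcl2l11: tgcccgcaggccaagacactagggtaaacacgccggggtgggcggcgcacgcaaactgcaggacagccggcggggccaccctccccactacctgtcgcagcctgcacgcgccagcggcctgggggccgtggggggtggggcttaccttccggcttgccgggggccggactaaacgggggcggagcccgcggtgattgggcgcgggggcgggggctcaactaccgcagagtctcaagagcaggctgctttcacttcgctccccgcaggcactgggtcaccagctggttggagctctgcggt
Bbc3: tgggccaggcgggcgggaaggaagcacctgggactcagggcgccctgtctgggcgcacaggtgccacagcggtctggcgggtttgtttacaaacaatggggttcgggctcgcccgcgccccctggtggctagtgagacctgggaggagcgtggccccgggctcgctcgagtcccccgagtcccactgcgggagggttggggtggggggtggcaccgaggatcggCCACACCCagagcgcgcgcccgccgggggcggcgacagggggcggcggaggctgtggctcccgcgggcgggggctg
The capitals in the Bbc3 window are the CACCC box letters, which 3.56% of all windows hold; a further Bbc3 window overlaps this match, and the remaining one carries the kappaB match. Neither Bcl2l11 window held any of the 7 patterns.

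Bmf, whose product is held at the cytoskeleton until it is released to bind survival proteins, rose in both transduced groups. It read -2.95 and -2.59 on control, -0.89 and -0.51 on IRF8-labelled, and -1.73 and -1.43 on KLF4-labelled arrays. No groups overlapped, in the same order as for Bcl2a1d and Mcl1. The rises were 4.19-fold (log2 2.07 ± 0.21 (SE), limma adjusted p = 8.35e-04) and 2.28-fold (log2 1.19 ± 0.21 (SE), limma adjusted p = 0.0227), and IRF8-labelled exceeded KLF4-labelled cells 1.84-fold (log2 0.88 ± 0.21 (SE), limma adjusted p = 0.0206). With normexp background correction the changes against control were smaller, 1.42 and 0.80. The call with the KLF4 label was lost with spike-in scaling (limma adjusted p = 0.0878) and without the filter on dim probes (0.0795). It was also lost without control replicate 1, KLF4-labelled replicate 1 or KLF4-labelled replicate 2. The call between the transduced groups was lost with spike-in scaling and without the filter on dim probes (limma adjusted p up to 0.204). It was also lost without IRF8-labelled replicate 2 or KLF4-labelled replicate 1. Over all alternatives, the log2 changes ran from 0.80 to 1.37 with the KLF4 label and 0.62 to 1.07 between the transduced groups.

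Bid was the BH3-only gene that fell. Its product is cut by caspase-8 and carries the death receptor signal to mitochondria. It read 4.39 and 4.63 on control, 3.59 and 3.83 on IRF8-labelled, and 4.19 and 4.42 on KLF4-labelled arrays, with the IRF8-labelled arrays lowest and the other groups overlapping. The fall was 1.74-fold in IRF8-labelled cells (log2 -0.80 ± 0.15 (SE), limma adjusted p = 0.00748, and 0.0653 with spike-in scaling). KLF4-labelled cells differed from control by -0.21 ± 0.15 (SE), 95% interval -0.60 to 0.18 (limma adjusted p = 0.377, and 0.0245 with the replicate block). IRF8-labelled cells were 1.50-fold below KLF4-labelled cells (log2 -0.59 ± 0.15 (SE), limma adjusted p = 0.0266). That call was lost with spike-in scaling and without the filter on dim probes (limma adjusted p up to 0.198). It was also lost without IRF8-labelled replicate 1, KLF4-labelled replicate 1 or KLF4-labelled replicate 2. The log2 difference ran from -0.73 to -0.47 over all alternatives.

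Bax, the pore former that the other members restrain or activate, was not called in any of the 3 comparisons. It read 5.59 and 5.56 on control, 5.65 and 5.58 on IRF8-labelled, and 5.51 and 5.43 on KLF4-labelled arrays. Differences from control were 0.04 ± 0.09 (SE), 95% interval -0.18 to 0.26, and -0.11 ± 0.09 (SE), 95% interval -0.32 to 0.11 (limma adjusted p = 0.709 and 0.426). The first changed sign, to -0.011 with median and -0.079 with spike-in scaling. The second did so with normexp (0.012). The transduced groups differed by 0.15 ± 0.09 (SE), limma adjusted p = 0.216, and 0.0471 with the replicate block.

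**Figure D2:**
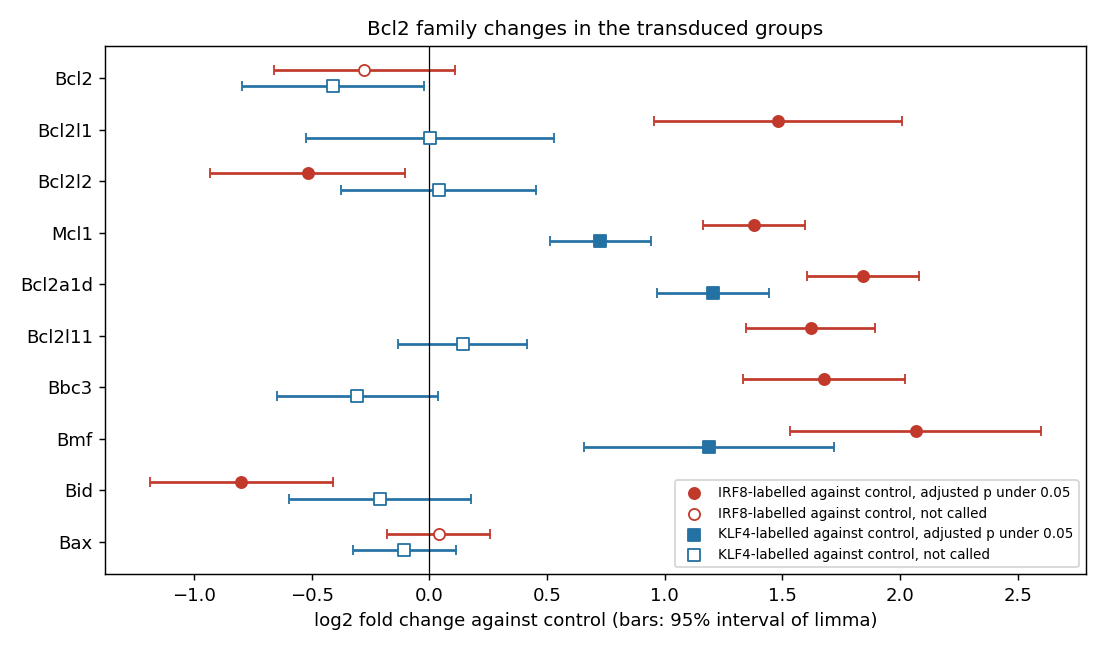
Log2 fold change against control (x axis) of the 10 Bcl2 family genes (y axis) in IRF8-labelled (circles) and KLF4-labelled cells (squares), with 95% intervals from limma; filled symbols have a limma adjusted p under 0.05. The IRF8 intervals of Bcl2l1, Mcl1, Bcl2a1d, Bcl2l11 and Bbc3 lie wholly above their KLF4 intervals, and the Bax values are 0.04 and -0.11.

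By role, the IRF8 label went with rises on both sides of the family. Of 5 survival genes 3 rose and 1 fell, and of 4 BH3-only genes 3 rose and 1 fell, with median changes of 1.38 and 1.65 on the log2 scale. Together 8 of 10 members were called at a limma adjusted p under 0.05, against 61.1% of the 13247 genes tested, and 6 rose, against 26.2% of genes called higher, and 2 fell, against 35.0% called lower. In 9 of 10 members the IRF8-labelled and control arrays did not overlap, which also held for 79.9% of all genes. With the replicate number as a block, 9 members and 75.6% of genes were called. The median change of the members was 1.43, and that of all genes tested -0.11. The members were chosen with earlier results of these data known. These counts and medians, and those of the other comparisons below, thus describe the 10 genes chosen and not the whole family. Of 12 further family genes tested, 4 rose and 4 fell with the IRF8 label, with a median of -0.11. By experiment, the 6 rises ran from 1.39 to 2.06 in replicate 1 and from 1.37 to 2.08 in replicate 2.

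The KLF4 label went with rises of Bcl2a1d, Mcl1 and Bmf. Of 5 survival genes 2 rose, of 4 BH3-only genes 1 rose, and 0 of the 10 fell, against 5.71% of all genes called lower; the 3 of 10 called compare with 16.1% of all genes, and the 3 rises with 10.4% called higher. The median change of the members was 0.02, and that of all genes -0.12. With the replicate number as a block, 6 of 10 members were called, against 47.7% of all genes, with Bcl2, Bbc3 and Bid added as lower. Groups did not overlap for 7 of 10 members and 61.0% of genes. Of all calls 64.6% were higher in KLF4-labelled cells, a share that moved to 87.8% with median scaling, 90.4% with spike-in scaling and 87.4% without the filter on dim probes, and to 37.4% with the replicate block, where lower calls outnumbered higher ones. Under the 2 scalings no member changed direction in this comparison. The comparisons with control share the control arrays, so they are not independent of each other.

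Set directly against each other, the transduced groups differed in 8 of 10 members, where 50.3% of all genes were called: 6 were higher (22.7% of all genes) and 2 lower (27.6%) in IRF8-labelled cells. Arrays did not overlap for 9 members and for 75.2% of genes, and with the replicate block 9 members and 68.4% of genes were called. Bbc3, Bcl2l1 and Bcl2l11 had the widest gaps, at 1.98, 1.48 and 1.48, and were the 3 members still called when arrays were scaled on the spike-in controls. The median difference of the members was 0.65, and that of all genes -0.03. Median scaling moved the share of calls that were higher from 45.1% to 35.0%, and Bcl2, which had differed by 0.13 ± 0.15 (SE), to -0.0065.

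Beyond the 10 members, 16 further genes of the family or its BH3-containing relatives were read as a list. Of these 14 were on the array, 12 were tested, and Hrk and Bcl2l10 were below background on all 6 arrays. In IRF8-labelled cells 4 rose and 4 fell, with a median of -0.11, and in KLF4-labelled cells 2 rose and 1 fell, with a median of -0.02. Apart from Bcl2a1c, the largest rise was that of Bnip3, a mitophagy receptor of the outer mitochondrial membrane, by 2.74-fold and 1.67-fold (log2 1.45 ± 0.09 and 0.74 ± 0.09 (SE), limma adjusted p = 2.00e-04 and 0.00726). Bok, a BAX-like effector, fell 1.95-fold in IRF8-labelled cells (log2 -0.96 ± 0.12 (SE), limma adjusted p = 0.00159) and differed from control by 0.11 ± 0.12 (SE) in KLF4-labelled cells. Bcl2l12 and Bcl2l13 fell by 0.60 and 0.57 in IRF8-labelled cells, and Bcl2l14 fell by 0.66 in KLF4-labelled cells. Bak1, the partner of Bax, was looked at after its values were seen, and differed from control by -0.04 and -0.20 (limma adjusted p = 0.720 and 0.202).

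Further genes of the mitochondrial death pathway were read as a list, and not all of them act after the pore has opened. Of 17 tested, 3 rose and 6 fell in IRF8-labelled cells and 1 rose and 1 fell in KLF4-labelled cells, with medians of -0.11 and -0.13, equal to within 0.01 to the medians of all genes. As for the lists before and after it, these counts stand beside 26.2% of all genes called higher and 35.0% lower with the IRF8 label, and 10.4% and 5.71% with the KLF4 label. Birc3, an inhibitor of apoptosis that acts in NF-kappaB signalling, rose 2.68-fold and 1.92-fold (log2 1.42 ± 0.10 and 0.94 ± 0.10 (SE), limma adjusted p = 3.05e-04 and 0.00497). The executioner caspase gene Casp6 rose 2.26-fold and the initiator caspase gene Casp9 1.71-fold with the IRF8 label (limma adjusted p = 3.86e-04 and 0.00590). A pair of genes for enzymes of the mitochondrial intermembrane space fell there, the protease gene Htra2 by 2.63-fold and the nuclease gene Endog by 2.15-fold (limma adjusted p = 2.60e-04 and 3.96e-04), and Endog fell 1.32-fold with the KLF4 label (limma adjusted p = 0.0420). Birc5, the mitotic protein survivin, fell 1.82-fold (limma adjusted p = 7.81e-04).

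Death receptor genes were read as a further list. Of 10 tested, 5 rose and 1 fell in IRF8-labelled cells (median 0.42) and 2 rose and 0 fell in KLF4-labelled cells (median 0.14). Fas, the receptor of Fas ligand, and Tnf were higher with the KLF4 label than with the IRF8 label, opposite to the order of the members that rose. Fas rose 2.11-fold with the IRF8 label and 4.21-fold with the KLF4 label (log2 1.07 ± 0.15 and 2.08 ± 0.15 (SE), limma adjusted p = 0.00250 and 0.00106; difference between them -1.001 ± 0.15 (SE), limma adjusted p = 0.00460). Tnf rose by 0.80 and 1.24 on the log2 scale (limma adjusted p = 0.00396 and 0.00386), a difference of -0.44 (limma adjusted p = 0.0389). Casp8, which cleaves BID, rose 1.72-fold with the IRF8 label, its adaptor Fadd fell 1.50-fold, and Tradd and Ripk3 rose by 0.42 and 0.43 (limma adjusted p = 0.00910 to 0.0366).

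Among 22 tested genes that regulate the members, 10 rose and 5 fell in IRF8-labelled cells and 4 rose and 2 fell in KLF4-labelled cells, with medians of 0.26 and 0.03. Trp53, which encodes p53, fell 2.15-fold with the IRF8 label (log2 -1.10 ± 0.08 (SE), limma adjusted p = 3.48e-04), while its targets Trp53inp1 and Mdm2 rose 6.04-fold and 3.14-fold (limma adjusted p = 1.04e-04 and 2.11e-04). In KLF4-labelled cells Trp53 differed by -0.17 and Mdm2 by 0.27, neither called, and Trp53inp1 rose 1.48-fold (limma adjusted p = 0.0455). Foxo1, a transcription factor restrained by growth factor signalling, rose 3.82-fold and 3.29-fold (limma adjusted p = 1.85e-04 and 9.57e-04), and Csf2rb, the signalling chain of the granulocyte-macrophage colony-stimulating factor receptor, 3.64-fold and 1.56-fold (limma adjusted p = 1.90e-04 and 0.0245). Ddit3 (CHOP), a stress factor known to raise Bcl2l11, rose 2.21-fold with the IRF8 label and fell 1.41-fold with the KLF4 label (limma adjusted p = 2.60e-04 and 0.0174).

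**Figure D3:**
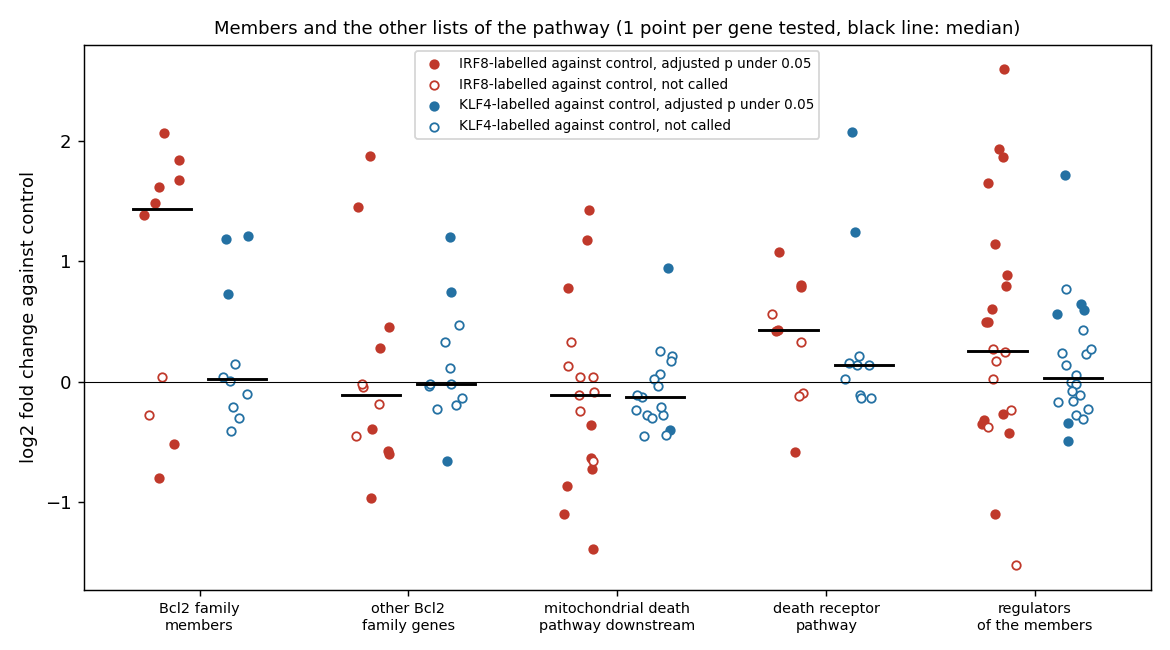
Log2 fold change against control (y axis) for every tested gene of 5 lists (x axis), in IRF8-labelled (red) and KLF4-labelled cells (blue); filled points have a limma adjusted p under 0.05 and the black line is the median. The members' medians are 1.43 and 0.02, and those of the list labelled mitochondrial death pathway downstream are -0.11 and -0.13.

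Genes with the most similar profile were found for the 6 members whose group means spanned at least 1 on the log2 scale, by the root mean square distance between log2 levels over the 6 arrays, each gene centred on its own mean. The nearest genes to Mcl1 were Tgfbr2 (distance 0.04), Bnip3 and H2-Q2, and those nearest to Bcl2a1d were Trpm4 (0.07), Bcl2a1c and Fxyd5. Bcl2l1 had Trim7 (0.08), Nlrc5 and Vps9d1 as neighbours, and Bcl2l11 had Scx (0.05), Trim14 and Natd1. Nearest to Bbc3 were Cfhr2 (0.06), Zfp385a and Prcp, and to Bmf Rnf149 (0.08), Anxa4 and Me1. Members were not each other's nearest genes: the closest pair, Bcl2l1 and Bcl2l11, lay 0.15 apart, at rank 48 among the neighbours of Bcl2l1 and rank 85 among those of Bcl2l11. Both ranks are among the 13247 genes tested, of which 10 are members. They therefore do not show that the members vary apart from each other.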

How the data were processed

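Per the labels, Cy3-labelled RNA of each sample went on its own Agilent array; 6 arrays in 3 groups of 2 were analysed. Per the file headers, the deposited values are intensity read by Agilent Feature Extraction 10.7.3.1, corrected for background within the array and not normalized between arrays. The authors' deposited value table also holds intensity, equal to the processed signal times a single factor per array (0.642 to 1.39; off by over 1% for 120 to 163 probes), and served as an alternative.

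Control spots were left out, replicate spots averaged, and 75 probes with marked spots dropped. Values are log2 intensity minus the array's 75th percentile. Genes were tested if, in 1 group or more, each array read their brightest probe well above background, in a single limma 3.58.1 fit (R 4.3.3) of 3 group means with Benjamini-Hochberg adjustment over 13247 genes and a threshold of 0.05, two-sided. An exact permutation test of 2 against 2 cannot go below p = 0.333. Names come from RefSeq accessions (GRCm38.p6); the array design is on mm9, so the coordinates given are those of the GRCm38.p6 promoter windows alone. Alternatives changed the scaling (median, quantile, spike-ins, the deposited value table), the background correction (normexp on median spot signals, then quantile), the filter or floor on dim probes, the choice of probe, the samples in the fit, the variance prior, the replicate block, or left out an array.

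Nothing in the labels beyond the design text's independent experiments separates cultures. Deviations of same-numbered arrays from their group means correlated at r = 0.282, 0.321 and 0.391 over genes, so the numbers were taken as pairs and blocked in an alternative fit; number, slide and scan day go together. Tested on simulated data for IRF8 against control (13247 genes, 200 changed, 10 draws), 49.8% of log2 changes of 1 and 82.4% of changes of 2 were recovered, with 5.47% false calls. Simulated arrays were independent of each other and few genes changed, whereas 61.1% of genes were called in the data. The rates thus describe the simulated setting and not the real comparison. Members and lists were chosen with earlier results of these data known; all 10 members are named, and up to 6 genes of each further list with the largest called changes. The number of arrays limits the precision, and the sources used here give no probe positions. The isoforms of Bcl2 and Bcl2l11 that the probes read could therefore not be checked. 1 marker gene is not reported here.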

Additional observations from a re-analysis of the deposited data

How the results depend on the processing

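Each result was recomputed under 14 alternatives, with the arrays left out in turn counted as 1 of them. The 6 rises in IRF8-labelled cells (Bcl2a1d, Mcl1, Bcl2l1, Bcl2l11, Bbc3 and Bmf) kept their direction and call under every alternative run, and Bcl2a1d did so in KLF4-labelled cells (adjusted p up to 0.0392). Calls were lost in 9 of 154 recomputed values of the 8 members called for IRF8-labelled against control cells (Bcl2l2 and Bid), in 8 of 58 of the 3 members called for KLF4-labelled against control (Bmf and Mcl1), and in 17 of 154 of the 8 members called between the transduced groups; the cause was not tested. Spike-in scaling left 4568, 873 and 2687 genes called in these comparisons, in place of 8100, 2138 and 6668, with 1 member called for the KLF4 label and 3 between the transduced groups. It moved the median of all genes from -0.11 to -0.23 for the first comparison and from -0.03 to -0.17 for the third, where median scaling also gave -0.17. Without the filter on dim probes, which raises the number of genes tested, 965 genes were called for the KLF4 label and 5 members between the transduced groups. With only the 2 groups compared in the fit (fewer samples to estimate the spread) 1397 genes were called for the KLF4 label. The replicate block raised that count to 6316 genes, and the members called to 6. It changed no member call other than those of Bcl2, Bbc3, Bid and Bax. Leaving out an array gave 7 to 8 members and 6594 to 7618 genes for the IRF8 label, 1 to 3 members and 880 to 1397 genes for the KLF4 label, and 6 to 8 members and 4577 to 6463 genes between the transduced groups. Differences near 0 changed sign. Bax against control with the IRF8 label became -0.011 (median scaling) and -0.079 (spike-ins), and with the KLF4 label 0.012 (normexp). With the KLF4 label, Bcl2l1 became -0.20 without control replicate 1 and -0.14 without KLF4-labelled replicate 2 (-0.20 to 0.21 over the arrays left out). Bcl2l2 there became -0.13 as a mean with its probe below background, and -0.071 and -0.13 without the same arrays (-0.13 to 0.21 over the arrays left out). Bcl2 between the transduced groups became -0.0065 (median scaling). The lowest signals well above background lay at -5.11 to -4.07, below the levels of Bmf (-2.95 to -0.51).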

Other observations

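The promoter of Bcl2a1d differed in base composition from those of the other members, an observation made after the sequences were seen. Its window held 44.3% G and C, while the windows of the other 9 members held 49.3% to 78.0% G and C; the median over all promoter windows was 52.7%. Among the A1 genes, the Bcl2a1d window was 94.1% identical to that of Bcl2a1a, 70.6% to that of Bcl2a1b and 48.5% to that of Bcl2a1c in global alignments. These alignments held gaps, with aligned lengths of 306, 350 and 326 in the same order. The windows are set by the annotated starts, and whether these correspond between the genes was not tested. The probes assigned to Bcl2a1d and Bcl2a1c gave similar changes (1.84 and 1.87 with the IRF8 label, 1.21 and 1.20 with the KLF4 label). Whether each probe reads its own gene alone was not tested.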
